A study of Homo sapiens with 6 samples.

Results

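The genes described here are 46 genes of glycolysis, its side branches and the transcriptional response to low oxygen, chosen by symbol, with earlier results of these data known. Of these, 44 had a row under their own symbol, TIGAR had one under its older symbol C12orf5, and MXI1P1 had no row under that symbol and is not analysed here. The deposited tables list 20667 gene symbols in all. RNA-seq was done on U2932, a cell line from an ABC-DLBCL, the subtype of diffuse large B cell lymphoma that resembles activated B cells. The cells stably carried, after lentiviral infection and selection with puromycin and by sorting, either an shRNA against ROCK2 (ROCK2 KD, 3 libraries) or a scrambled shRNA (Scr, 3 libraries), both in a pLKO.1 vector with a tGFP cassette, and all were grown in the same serum-containing medium. The libraries are numbered as replicates 1 to 3 in both groups, so that each number holds 1 ROCK2 KD and 1 Scr library. The labels do not say whether a number stands for a culture, a day or a library preparation, and these cannot be told apart here. They also do not say whether the libraries came from separate cultures, so p values measure the spread between these samples, which may be technical.

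Glycolysis breaks glucose down to pyruvate, which is either reduced to lactate and exported or passed to the mitochondria through pyruvate dehydrogenase. When oxygen is low, the prolyl hydroxylases of the EGLN family no longer mark the HIF alpha subunits for VHL, the subunits pair with ARNT, and the complex switches on a set of genes that includes glucose transporters, glycolytic isoenzymes, pyruvate dehydrogenase kinases, VEGFA and BNIP3. Lymphoma cells in culture use much glucose and express most glycolytic enzymes strongly, whatever their oxygen supply. The oxidative part of the pentose phosphate pathway takes glucose-6-phosphate out of glycolysis to make NADPH, and its other part returns sugars to it.

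The values are FPKM, fragments counted relative to transcript length and to all mapped fragments, which can be compared between genes. They were multiplied by 1 factor per library, found from a trimmed mean of log ratios to 1 reference library (Scr replicate 3) and then centred, and are called scaled FPKM. The factor was 1.47 for both replicate 1 libraries and below 1 for the other 4. The deposited FPKM of replicate 1 summed to 208289 and 217309 and those of the others to between 438262 and 480612, though these totals did not set the factor. FPKM do not state the depth of each library, but the smallest steps between values put all libraries between 71.2% and 100% of the deepest. A gene was tested where 3 or more libraries reached an FPKM of 1, which kept 42 of the 45 genes with a row and left out EPAS1, EGLN3 and NDRG1. All 6 B cell markers examined reached 1 FPKM in at least 1 library, none of 3 T cell, 3 myeloid and 3 erythroid markers did in any library (CD2 was listed at 0 in all 6), and of 4 epithelial and fibroblast markers only EPCAM did. ROCK2, the targeted gene, had scaled FPKM of 4.03, 4.33 and 1.06 in ROCK2 KD replicates 1, 2 and 3 and of 6.34, 5.83 and 4.91 in the Scr libraries, lower in each pair and with no overlap of the groups (log2 difference -0.81, SE 0.22, adjusted p = 0.811 from limma). Without replicate 3 the difference was -0.45, and without replicate 2 it was -1.03.

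The main difference among these genes lay between replicate 1 and the other replicate numbers, in ROCK2 KD and Scr cells alike. Of the 42 genes tested, 29 (69.05%) differed between replicate numbers at an adjusted p under 0.05 in limma's F test, against 48.7% of the 10526 genes tested. In replicate 1, 15 genes (35.7%) were higher than in both other replicate numbers, where 15.5% of all genes were, and 9 (21.4%) were lower than in both, where 16.6% of all genes were. The count of lower genes fell from 9 to 5 without ROCK2 KD replicate 2 or without Scr replicate 1, and to 6 without Scr replicate 2 or 3, and over all genes it fell as well, from 1747 to 1144, 1061, 1199 and 979 without ROCK2 KD replicate 2 and Scr replicates 1, 2 and 3. The other 18 were neither. The 15 higher genes comprised 5 hypoxia response genes, the oxygen sensor EGLN1, the glucose and lactate transporters SLC2A1, SLC2A3 and SLC16A3, and the enzymes HK2, PFKFB3, PFKFB4, ALDOC, ENO2 and PDK1. The 9 lower genes included 3 of the 4 genes of the pentose phosphate pathway and its control, and no hypoxia response gene.

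**Figure D1:**
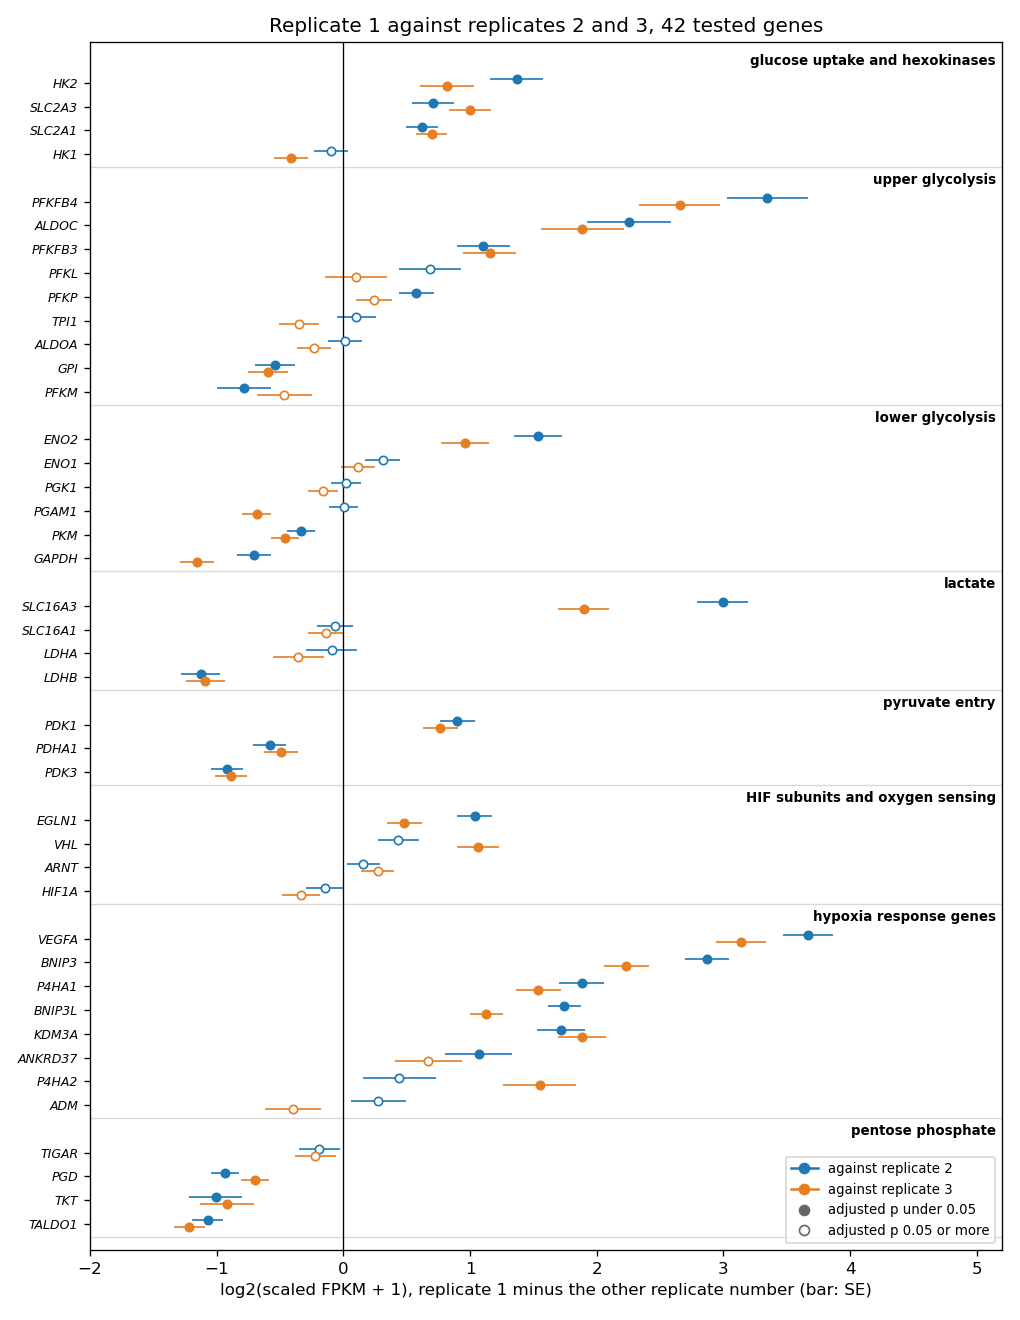
Difference of replicate 1 from replicate 2 (blue) and from replicate 3 (orange) in log2(scaled FPKM + 1) on the horizontal axis, for the 42 tested genes grouped by role on the vertical axis. Bars show the standard error, filled points an adjusted p under 0.05 and open points a higher one. The hypoxia response genes lie mostly to the right of 0, up to 3.67 for VEGFA, and PGD, TKT and TALDO1 to the left.

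Among the tested hypoxia response genes, VEGFA, the growth factor that draws blood vessels, had the largest differences. It lies on chromosome 6 from 43737921 to 43754224 (GRCh37). Its scaled FPKM was 44.1 in ROCK2 KD and 37.5 in Scr cells of replicate 1, 2.15 and 2.42 in replicate 2, and 2.89 and 4.75 in replicate 3. Both replicate 1 libraries were thus far above the other 4, and their mean was 17.9-fold that of replicate 2 and 10.7-fold that of replicate 3. On the log2 scale the differences were 3.67 and 3.14 (SE 0.20 for both, adjusted p = 0.000178 and 0.000194), and VEGFA stood at position 7 of 10526 genes ranked by the excess of replicate 1 over the mean of the others.

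BNIP3, a mitochondrial protein of the mitophagy and cell death machinery, lies on chromosome 10 from 133781188 to 133795471. Its scaled FPKM was 87.9 in ROCK2 KD and 87.4 in Scr cells of replicate 1, against 8.78 and 13.96 in replicate 2 and 14.6 and 21.7 in replicate 3. The replicate 1 mean was 7.71-fold and 4.83-fold that of replicates 2 and 3 (adjusted p = 0.000239 and 0.000369). Its paralogue BNIP3L had 38.4 and 34.9 in replicate 1, 9.73 and 10.7 in replicate 2, and 16.9 and 15.6 in replicate 3. The order of the replicate numbers was the same for both paralogues, with replicate 2 lowest, and for BNIP3L the difference of replicates 3 and 2 also passed the test (log2 0.62, adjusted p = 0.0454).

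P4HA1, a subunit of the collagen prolyl 4-hydroxylase, had 25.2 and 19.4 scaled FPKM in ROCK2 KD and Scr cells of replicate 1, 5.08 and 5.48 in replicate 2 and 6.21 and 7.78 in replicate 3. KDM3A, a histone H3 lysine demethylase induced by hypoxia, had 26.9 and 32.5 in replicate 1, 8.10 and 8.45 in replicate 2, and 5.26 and 9.90 in replicate 3. For both genes the 2 libraries of replicate 1 lay above all 4 others, with log2 differences from 1.54 to 1.89. NDRG1, a stress-induced gene, was left out of the test because only 2 libraries reached 1 FPKM. Those were the replicate 1 libraries, with scaled FPKM of 12.4 in ROCK2 KD and 9.63 in Scr cells, where the other 4 lay between 0.230 and 0.356.

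The hypoxia response genes did not all follow this pattern. ANKRD37, an ankyrin repeat protein, was higher in replicate 1 than in replicate 2 (log2 1.07, adjusted p = 0.0178) while its difference from replicate 3 missed the threshold (log2 0.67, adjusted p = 0.0774). P4HA2, the other collagen hydroxylase subunit in the list, had scaled FPKM of 2.47 and 2.06 in ROCK2 KD and Scr cells of replicate 1, 0.616 and 2.55 in replicate 2, and 0.0137 and 0.220 in replicate 3, so that replicate 1 exceeded only replicate 3 beyond the test. For ADM, which encodes the vasodilator peptide adrenomedullin, neither difference passed (log2 0.28 and -0.40, adjusted p = 0.336 and 0.179). Over the 8 tested genes of the group, 5 were higher in replicate 1 than in both others, 0 were lower, and the median differences were 1.73 from replicate 2 and 1.54 from replicate 3 on the log2 scale, beside 0.02 and -0.02 over all genes tested.

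**Figure D2:**
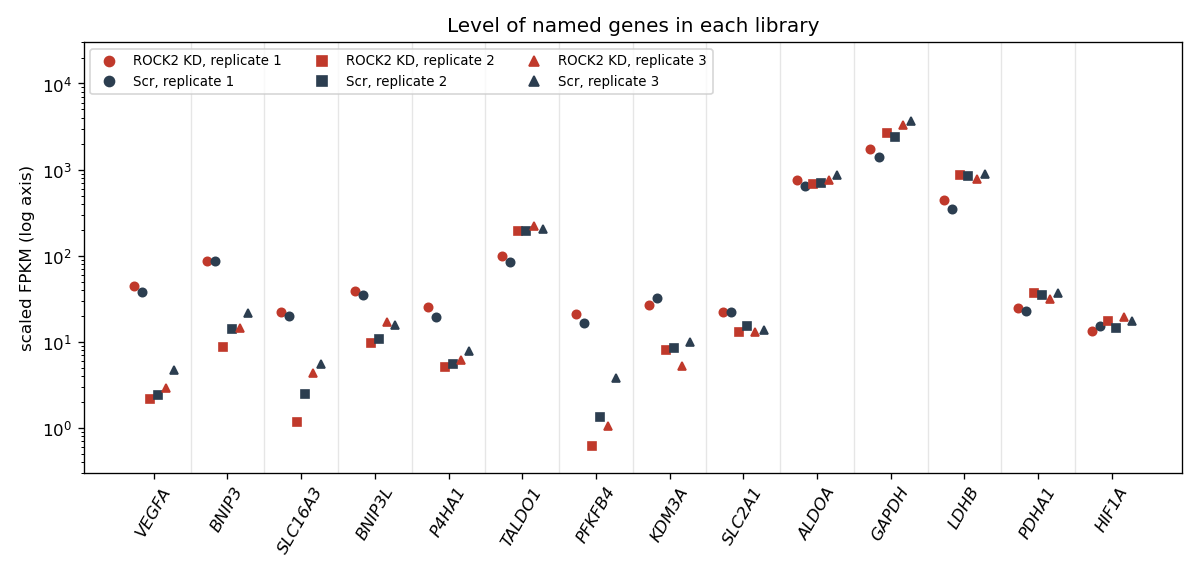
Scaled FPKM on a log axis in each of the 6 libraries for 14 genes: the 8 with the lowest p between replicate numbers, then the most abundant gene of each role that is not among them. Colour gives the group and the marker shape the replicate number. VEGFA, BNIP3, SLC16A3, BNIP3L, P4HA1, PFKFB4 and KDM3A are highest in both replicate 1 libraries, TALDO1, GAPDH, LDHB and PDHA1 are lowest there, and for ALDOA and HIF1A replicate 1 overlaps replicate 2.

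Of the 4 tested genes that sense oxygen and carry the signal, 1 was higher in replicate 1 than in both others. HIF1A, the oxygen-regulated alpha subunit, had scaled FPKM of 13.5 and 15.2 in ROCK2 KD and Scr cells of replicate 1, 17.6 and 14.4 in replicate 2, and 19.4 and 17.2 in replicate 3. Replicate 1 overlapped replicate 2 and lay below replicate 3, and neither difference passed the test (log2 -0.15 and -0.33, adjusted p = 0.452 and 0.107). Its partner ARNT had between 6.32 and 8.30, with log2 differences of 0.16 and 0.27 that did not pass. HIF is regulated mostly through the stability of its alpha subunit, so mRNA levels do not report its activity. EPAS1, the alternative alpha subunit, did not exceed 0.0870 scaled FPKM in any library, and EGLN3 was listed at 0 in all 6.

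EGLN1, the main oxygen-sensing prolyl hydroxylase and itself a HIF target, was higher in replicate 1, at 6.18 and 6.27 scaled FPKM, than in replicate 2, at 2.35 and 2.69, and replicate 3, at 4.35 and 4.01 (adjusted p = 0.00229 and 0.0281). EGLN1 lost this call when libraries were centred within bins of transcript length, where the other 14 of the 15 kept theirs. VHL, the ubiquitin ligase subunit that binds hydroxylated HIF, had 18.1 and 19.0 in replicate 1, 13.1 and 13.9 in replicate 2, and 6.70 and 10.4 in replicate 3. Its excess in replicate 1 passed the test against replicate 3 (log2 1.06, adjusted p = 0.00311) and missed it against replicate 2 (log2 0.43, adjusted p = 0.0689).

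In glucose uptake and glycolysis, the genes higher in replicate 1 than in both others were the transporters SLC2A1 and SLC2A3, the regulators PFKFB3 and PFKFB4, and the isoenzymes HK2, ALDOC and ENO2. PFKFB4, which makes and breaks down fructose-2,6-bisphosphate and so sets the pace of phosphofructokinase, had scaled FPKM of 21.0 and 16.7 in ROCK2 KD and Scr cells of replicate 1, 0.614 and 1.33 in replicate 2, and 1.06 and 3.77 in replicate 3. This is 19.4-fold and 7.81-fold between the means (log2 3.35 and 2.65, SE 0.32 for both, adjusted p = 0.00104 and 0.00141). Its relative PFKFB3 was 2.28-fold and 2.31-fold higher, and ALDOC, the minor aldolase, 5.31-fold and 3.75-fold. ENO2, the enolase named for neurons, was 3.11-fold and 2.01-fold higher in replicate 1, and HK2, the inducible hexokinase, 2.87-fold and 1.79-fold.

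SLC2A1, the basal glucose transporter GLUT1 and the most abundant gene of the uptake group, had 22.2 and 22.5 scaled FPKM in replicate 1, 13.1 and 15.3 in replicate 2, and 13.0 and 13.8 in replicate 3. Both libraries of replicate 1 lay above the other 4, by 1.57-fold and 1.67-fold (adjusted p = 0.00857 and 0.0054). SLC2A3, the high-affinity transporter GLUT3, was low in all libraries, between 1.08 and 3.33, and was also higher in replicate 1. HK1, the constitutive hexokinase, had 10.2 and 8.28 in replicate 1, 10.8 and 9.08 in replicate 2, and 12.7 and 12.4 in replicate 3, and was lower in replicate 1 than in replicate 3 only (log2 -0.41, adjusted p = 0.0427).

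The abundant enzymes ALDOA, TPI1, GAPDH, PGK1, PGAM1, ENO1, PKM, GPI and LDHA were not among the genes higher in replicate 1 than in both others. ALDOA, the main aldolase, had 752 and 637 scaled FPKM in ROCK2 KD and Scr cells of replicate 1, 679 and 697 in replicate 2, and 755 and 876 in replicate 3. Replicate 1 overlapped replicate 2 and lay just below replicate 3, and its log2 differences of 0.01 and -0.23 did not pass the test. TPI1, PGK1, ENO1 and LDHA, the triose phosphate isomerase, phosphoglycerate kinase, main enolase and M-type lactate dehydrogenase, likewise passed in neither contrast, with log2 differences from -0.36 to 0.31. GAPDH, the most abundant member, had 1740.1 and 1393 in replicate 1, 2682 and 2400.3 in replicate 2, and 3304 and 3636 in replicate 3. All replicate 1 values were below the others, at 0.617 of the replicate 2 mean and 0.452 of that of replicate 3 (adjusted p = 0.00716 and 0.00125). PFKP, the most abundant phosphofructokinase here, had 65.0 and 57.7 in replicate 1, above the other 4 at 37.0 to 51.8, and passed against replicate 2 (log2 0.58, adjusted p = 0.0162) and not against replicate 3 (log2 0.24, adjusted p = 0.195). PKM, the pyruvate kinase, and GPI, the glucose-6-phosphate isomerase, were lower by less, to between 0.657 and 0.795 of the other means. Several of these enzymes have processed pseudogenes or near-identical copies, among them GAPDH, PGK1, PGAM1, ENO1, LDHA, LDHB and TPI1, and how reads were divided between the copies is not given in the sources used here.

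Lactate handling split in the same way. SLC16A3, the monocarboxylate transporter MCT4 that exports lactate, had scaled FPKM of 22.1 and 19.8 in ROCK2 KD and Scr cells of replicate 1, 1.18 and 2.47 in replicate 2, and 4.35 and 5.48 in replicate 3. It was 11.5-fold and 4.27-fold higher in replicate 1 (adjusted p = 0.000323 and 0.000937), and replicate 3 exceeded replicate 2 as well (log2 1.10, adjusted p = 0.028). Its constitutive relative SLC16A1, or MCT1, lay between 39.3 and 50.7 in all 6 libraries. LDHB, the H-type lactate dehydrogenase, had 442 and 345 in replicate 1, 874 and 833 in replicate 2, and 768 and 900.0 in replicate 3. The replicate 1 libraries were the lowest, with log2 differences of -1.13 and -1.09 (SE 0.15 for both, adjusted p = 0.00239 and 0.0023).

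At the entry of pyruvate into mitochondria, PDK1, a kinase that switches off pyruvate dehydrogenase and a known HIF target, was 2.23-fold and 1.96-fold higher in replicate 1. PDK3, another kinase of this family, was lower, at 0.477 and 0.488 of the other means. PDHA1, the catalytic alpha subunit of pyruvate dehydrogenase, had scaled FPKM of 24.7 and 22.9 in ROCK2 KD and Scr cells of replicate 1, 36.8 and 35.4 in replicate 2, and 31.5 and 36.4 in replicate 3, again lowest in both libraries of replicate 1 (adjusted p = 0.0128 and 0.0219).

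In the pentose phosphate pathway, TALDO1, the transaldolase, had scaled FPKM of 100.4 and 83.7 in ROCK2 KD and Scr cells of replicate 1, 191 and 196 in replicate 2, and 223 and 206 in replicate 3. The log2 differences were -1.07 and -1.22 (SE 0.12 for both, adjusted p = 0.00149 and 0.000748). PGD, the oxidative enzyme 6-phosphogluconate dehydrogenase, had 66.6 and 55.3 in replicate 1, 124 and 109 in replicate 2, and 104 and 94.8 in replicate 3, and TKT, the transketolase, was at 0.497 and 0.517 of the other means. TIGAR, a fructose-2,6-bisphosphatase that favours this pathway, lay between 1.73 and 2.68 and passed in neither contrast.

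Since the level of replicate 1 depends on the scaling, related genes were also compared within each library, where a common factor cancels. The pairs were chosen after the values had been seen and are given without a test. PFKFB4 made up 47.3% and 45.6% of the summed FPKM of PFKFB3 and PFKFB4 in ROCK2 KD and Scr cells of replicate 1, and between 6.10% and 24.4% in the other 4 libraries. SLC16A3 made up 31.8% and 33.5% of the sum of SLC16A1 and SLC16A3, against 2.45% to 9.75%. PDK1 accounted for 58.2% and 54.3% of PDK1 and PDK3 in replicate 1 and for 21.1% to 25.0% elsewhere, and HK2 for 61.6% and 64.7% of both hexokinases against 33.7% to 47.3%. LDHA made up 48.2% and 48.1% of both lactate dehydrogenases in replicate 1 and between 30.6% and 38.0% in the others. In these pairs, and for ALDOC within the aldolases, ENO2 within the enolases and BNIP3 beside BNIP3L, both replicate 1 libraries lay above the other 4. SLC2A3 as a share of both glucose transporters was the exception among the pairs examined, at 12.2% and 12.9% in replicate 1 and 7.24% to 13.1% elsewhere. Shares were also taken within PFKL, PFKM and PFKP. There PFKP lay above the other 4 libraries in replicate 1 (57.9% and 62.7%, against 47.6% to 54.6%). PFKM lay below them (14.9% and 13.8%, against 18.2% to 36.4%). A share shows unequal change of its members and not which of them changed.

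**Figure D3:**
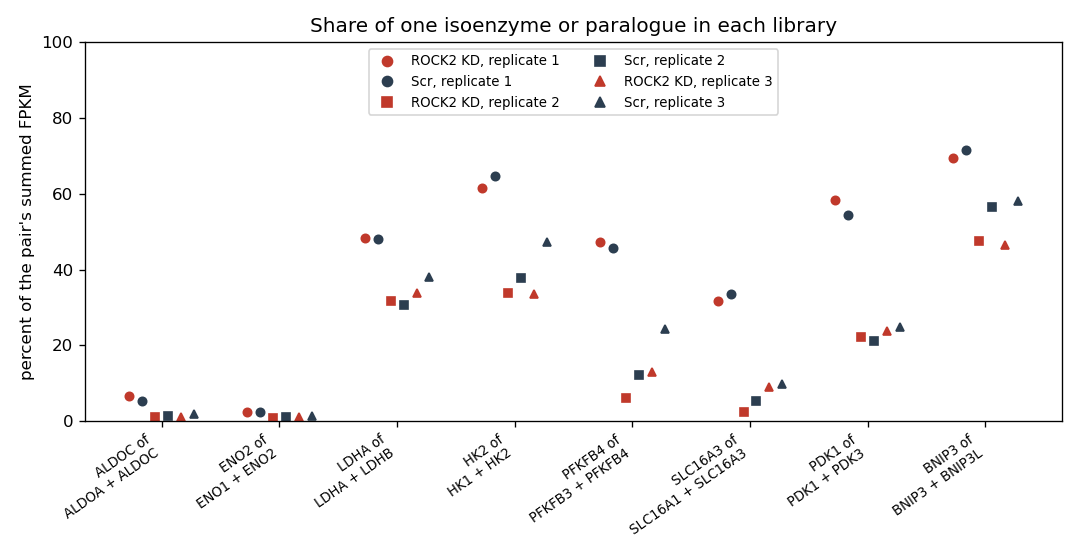
Share of 1 gene in the summed FPKM of a related pair, in percent, in each library. Colour gives the group and the marker shape the replicate number. Both replicate 1 libraries lie above the other 4 in each pair shown, by the widest margins for PDK1, PFKFB4 and SLC16A3. The glucose transporters, where replicate 1 overlaps the others, and the phosphofructokinases are not shown.

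The scaling bears on where the line between higher and lower falls. With the FPKM used as deposited, the median of all genes was shifted by -0.71 and -0.70 on the log2 scale in replicate 1 against replicates 2 and 3, and 8 of the 15 genes higher in replicate 1 still passed (VEGFA, BNIP3, BNIP3L, P4HA1, KDM3A, PFKFB4, ALDOC and SLC16A3), while 2 of them, SLC2A1 and EGLN1, lost their direction. In that setting 21 of the 42 genes were lower in replicate 1, where 60.9% of all genes were lower and 2.90% higher. With equal FPKM totals, all 15 still passed and 6 of the 9 lower genes did, without GPI, PKM and PDHA1, while 26.4% of all genes were higher and 7.30% lower. The summed deposited FPKM of the 6 B cell markers also moved with the replicate number and lay between 316 and 447 in replicate 1 and between 1168 and 1507 in the other libraries, and that of 3 ABC-DLBCL markers (IRF4, FOXP1 and BATF) lay between 34.9 and 42.8 in replicate 1 and between 141 and 233 in the others. These sums are not scaled, and the library factors (1.47 in replicate 1, 0.81 to 0.85 in the others) would narrow both gaps. The part of the markers in the result was not tested, and in bulk RNA fewer cells of a kind and less RNA per cell cannot be told apart.

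A HIF complex binds the core letters ACGTG or GCGTG. The 250 bases before and 50 after the start of a gene, from RefSeq on GRCh38.p14, were searched for ACGTG on both strands, where it reads CACGT on the other strand, and the palindrome CACGTG counts as 2 overlapping matches. A window was matched for 39 of the 46 genes, with none for SLC2A3, SLC16A1, VHL, BNIP3L, VEGFA, NDRG1 and MXI1P1. At least 1 match was found in 6 of the 12 windows of genes higher in replicate 1 (50%), in 4 of 9 of those lower (44.4%) and in 5 of 16 of the other tested genes, beside 28.3% of the windows of all tested genes and 21.6% of all 27305 windows. A match is a description of the letters and does not show binding. GCGTG was found in 48.7% of the windows matched here and in 52.6% of those of all tested genes. The stretches of 60 bases before the start that hold the match nearest to it are shown for the 6 higher genes with a match and, for comparison, for LDHA, which did not pass, and GAPDH, which was lower, with the matches in capitals and read 5′ to 3′ on the gene's strand.
BNIP3, chr10:131982024-131982083, minus strand: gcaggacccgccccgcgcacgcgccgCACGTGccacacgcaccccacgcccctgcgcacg
P4HA1, chr10:73096920-73096979, minus strand: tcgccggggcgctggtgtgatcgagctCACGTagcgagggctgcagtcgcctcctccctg
ALDOC, chr17:28576896-28576955, minus strand: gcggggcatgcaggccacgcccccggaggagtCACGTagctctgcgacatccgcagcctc
ENO2, chr12:6914435-6914494, plus strand: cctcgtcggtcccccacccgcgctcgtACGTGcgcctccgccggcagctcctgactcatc
HK2, chr2:74834052-74834111, plus strand: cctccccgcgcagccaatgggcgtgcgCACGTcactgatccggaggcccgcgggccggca
EGLN1, chr1:231422288-231422347, minus strand: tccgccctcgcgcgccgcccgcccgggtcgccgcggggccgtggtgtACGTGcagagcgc
LDHA, chr11:18394463-18394522, plus strand: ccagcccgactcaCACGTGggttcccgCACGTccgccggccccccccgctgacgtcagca
GAPDH, chr12:6535157-6535216, plus strand: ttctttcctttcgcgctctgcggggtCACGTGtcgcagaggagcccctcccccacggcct

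Further genes of the same pathways, taken from a list of 78 of which 72 had a row and 47 were tested, moved in both directions. In replicate 1, 7 were higher than in both others (14.9%) and 12 lower (25.5%), beside the 15.5% and 16.6% of all genes, so that the share of higher ones lies near that of all genes. They included DDIT4, a stress-induced inhibitor of mTORC1, with scaled FPKM of 84.4 and 68.2 in ROCK2 KD and Scr cells of replicate 1 and between 7.04 and 19.8 in the others. HILPDA, a hypoxia-induced lipid droplet protein, had 56.4 and 29.9 in replicate 1 and 7.31 to 15.4 elsewhere. AK4, GBE1, INSIG2, MXI1 and PGAM2 were the other higher genes. Among the lower ones were DLAT, DLD and PDHB, subunits of the pyruvate dehydrogenase complex, and CUL2, RBX1, TCEB2 and TFRC of the HIF pathway and hypoxia genes. Of the 23 tested genes of that last list, 6 were higher (26.1%) and 4 lower (17.4%). Of the 13 further glycolysis and pentose phosphate genes tested, 1 was higher (7.69%) and 5 were lower (38.5%). Of the 11 further pyruvate genes, 0 were higher and 3 lower (27.3%).

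Between replicates 3 and 2 the test passed for 3 genes. BNIP3L, PGAM1 and SLC16A3 were higher in replicate 3 (7.14% of 42, beside 2.77% of all genes) and 0 were lower (2.61% of all genes). PGAM1, the phosphoglycerate mutase, had scaled FPKM of 147 in both libraries of replicate 3 and between 84.3 and 98.8 in the other 4. These calls rest on few libraries: 7 genes passed without either or both of the replicate 1 libraries, and 1 without ROCK2 KD replicate 2, ROCK2 KD replicate 3 or Scr replicate 3. Over all genes the count moved from 567 to between 903 and 909 without replicate 1 libraries, and to 271, 252 and 538 without ROCK2 KD replicate 2, ROCK2 KD replicate 3 and Scr replicate 3.

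For ROCK2 KD against Scr, which asks whether knockdown of the kinase changed these genes, 0 of the 42 had an adjusted p under 0.05 in limma with the number as a block, as was the case for 0% of all genes, and the adjusted p values lay between 0.897 and 1. ROCK2 itself, the target, did not pass in this fit either (adjusted p = 0.811 in limma). The count of 0 therefore does not show that these genes were unchanged. The paper's own test, on batch-corrected counts, did call genes for this comparison. Before adjustment, 2 of the 42 genes (4.76%), BNIP3 and KDM3A, both lower in ROCK2 KD, had a p under 0.05, where 5.39% of all genes were. After ComBat on the replicate number and without a block, 0 of the 42 passed, beside 2.82% of all genes. The difference with the lowest p, in BNIP3, was -0.38 on the log2 scale (SE 0.14, adjusted p = 0.897), with means of 37.1 ± 44.1 scaled FPKM in ROCK2 KD and 41.0 ± 40.4 in Scr cells (SD, n = 3 each). The SDs are as large as the means because replicate 1 held 87.9 and 87.4, and within the pairs the log2 differences were 0.01, -0.61 and -0.54. KDM3A was lower in ROCK2 KD in all 3 pairs, by log2 differences of -0.26, -0.05 and -0.80 (mean -0.37, SE 0.16, adjusted p = 0.909).

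Of the other genes with the lowest p, PGD was higher in ROCK2 KD in all 3 pairs (0.27, 0.19 and 0.13 on the log2 scale, adjusted p = 0.943) and so was HK1 (0.28, 0.23 and 0.03, adjusted p = 0.957). VHL was lower in all 3 (-0.07, -0.07 and -0.56, adjusted p = 0.957). PFKFB4, P4HA2 and SLC16A3 were lower in pairs 2 and 3 and higher in pair 1, with mean log2 differences of -0.48 (SE 0.26), -0.41 (SE 0.24) and -0.27 (SE 0.17). These rest on single pairs: without replicate 3, PFKFB4 was at -0.11, VHL at -0.07 and KDM3A at -0.16, and without replicate 2, P4HA2 was at -0.04 and SLC16A3 at -0.06. In all, the ROCK2 KD value was the higher one in each pair for 3 of the 42 genes (HK1, PDK3 and PGD) and the lower one for 3 (KDM3A, SLC2A1 and VHL), 7.14% each, beside 12.7% and 12.3% of all genes. Of the further pathway genes, MPC1, a subunit of the mitochondrial pyruvate carrier, and PGM1, the phosphoglucomutase that links glycogen to glycolysis, had higher ROCK2 KD values in each pair (log2 0.39, SE 0.11, and 0.30, SE 0.10). Neither passed with the block (adjusted p = 0.811 and 0.888), and both passed after ComBat without it.

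The sign of the difference between ROCK2 KD and Scr depended on the pair. ROCK2 KD was the higher library for 34 of the 42 genes in pair 1 (80.95%), for 21 in pair 2 (50%) and for 12 in pair 3 (28.6%), whereas 52.0%, 48.7% and 49.9% of all genes were higher. Higher in pair 1 and lower in pair 3 were 27 of the 42 (64.3%), beside 26.7% of all genes. They included all 6 genes of lower glycolysis, all 4 of lactate handling and 8 of 9 of upper glycolysis. For PGAM1 and PKM the libraries of pair 3 were nearly equal (log2 -0.0025 and -0.0029), and their deposited FPKM were higher in ROCK2 KD there. The median log2 difference in pairs 1 and 3 was 0.31 and -0.36 in upper glycolysis, 0.22 and -0.13 in lower glycolysis and 0.31 and -0.25 in lactate handling, while over all genes it was 0.01 and 0.00. LDHA shows the pattern, with scaled FPKM of 412 in ROCK2 KD and 320 in Scr cells of replicate 1, 406 and 368 in replicate 2, and 391 and 552 in replicate 3.

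**Figure D4:**
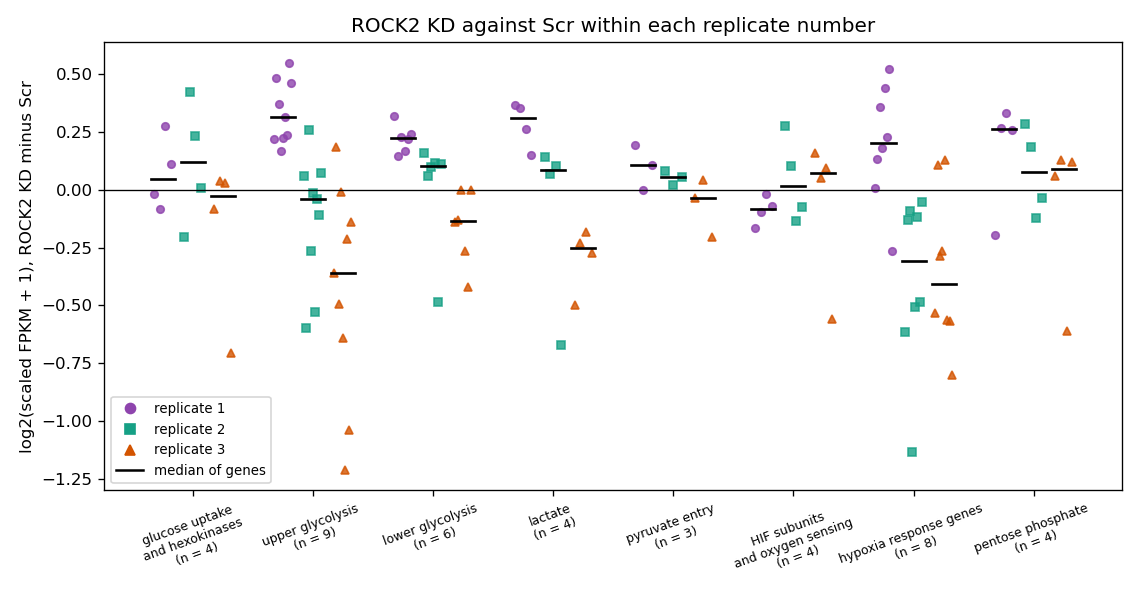
Difference between the ROCK2 KD and the Scr library of the same replicate number in log2(scaled FPKM + 1), for the 42 tested genes grouped by role. Each point is 1 gene, colour and shape give the replicate number, and the black line is the median of the genes. In lower glycolysis and lactate handling all points of replicate 1 lie above 0 and all points of replicate 3 below it, though PGAM1 (-0.0025) and PKM (-0.0029) only just, with a sign that depends on the scaling.

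The hypoxia response genes were higher in ROCK2 KD in pair 1 for 7 of 8 (KDM3A was lower), in pair 2 for 0 of 8 and in pair 3 for 2 of 8 (BNIP3L and ADM). The oxygen-sensing group ran the other way in pair 1, where all 4 of its tested genes were lower in ROCK2 KD, by at most 0.16 on the log2 scale for HIF1A. With equal FPKM totals, 32, 21 and 15 of the 42 genes were higher in ROCK2 KD in pairs 1, 2 and 3, beside 42.4%, 47.5% and 54.7% of all genes, so that the contrast of pairs 1 and 3 kept its direction. Each pair holds 1 library per group, so a difference between pairs in the response to the shRNA has no replicate and was not tested.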

How the data were processed

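The files hold 1 value per gene symbol and library, in FPKM, which the authors computed with Cufflinks from paired reads of 50 bases that had been mapped to hg19 with STAR. Replicates were not pooled. The authors' own test, on batch-corrected counts, could not be repeated from FPKM, and no count test was run. The 46 genes, the role groups, the further pathway genes and the tests were chosen with earlier results of these data known.

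Each library was scaled by the mean of its log ratios after trimming (0.3 of ratios, 0.05 of levels). The 10526 genes that reached an FPKM of 1 in 3 or more libraries were kept, and log2(scaled FPKM + 1) was fitted in limma 3.58.1 (R 4.3.3) with condition and replicate number as a block, and empirical Bayes with a mean-variance trend. Tests were two-sided, with Benjamini-Hochberg adjustment over all 10526 genes at 0.05. The pseudocount of 1 understates changes of low genes. Differences between replicate numbers came from the same fit, as an F test and as contrasts. Folds are ratios of mean scaled FPKM. The pairing rests on the labels' shared numbers and on a check across genes: after subtraction of the group mean, libraries of the same number correlated at 0.848, 0.784 and 0.737, libraries of different numbers at -0.64 to 0.05. Subtracting the group mean pushes the latter down once the former are positive, so the negative values add no support of their own.

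Values in every library are given for the 8 tested genes with the lowest p for ROCK2 KD against Scr, the 8 with the lowest p between replicate numbers and the most abundant gene of each role. NDRG1, EGLN1, LDHA, PGAM1, DDIT4 and HILPDA were added after their values were seen. Some genes of the lists are not reported here by name. Alternatives were another pseudocount, other filters and scalings, no trend, no block, ComBat, and leaving out libraries, with centring within bins of transcript length or GC content and single libraries left out for the contrasts added after the data were seen. Gene positions are from GENCODE 44 on GRCh37 and promoter sequences from RefSeq on GRCh38.p14. The fits were tested on simulated data. Python 3.11.15, pandas 2.3.3, matplotlib 3.10.9 and numpy 2.4.6 served for tables and figures.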

Additional observations from a re-analysis of the deposited data

How the results depend on the processing

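For ROCK2 KD against Scr, 0 of the 42 genes passed under all alternatives run, including the fit with no replicate block. Over all genes the count was 0 with the replicate block and with no replicate block, 297 after ComBat with no block, and 0 to 17 with a replicate number left out (4 without replicate 3, 17 without replicate 1). The F test between replicate numbers called 5129 genes, 8113 with no scaling, and 903 to 4654 with libraries left out, the lowest without replicate 1, where 7 of the 42 genes passed (29 in the full fit, up to 32 with other libraries left out, 35 with no scaling and 21 with no filter).

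Higher in replicate 1 than in both others were 1634 genes, 3146 with no filter, 305 with no scaling, 2776 with equal FPKM totals, and 940 to 1321 with 1 library left out (940 without ROCK2 KD replicate 2, 1000 without Scr replicate 3). Of the 42 genes, 15 were higher, 8 with no scaling and 13 to 15 with 1 library left out. Lower were 1747 genes, 6407 with no scaling, 768 with equal FPKM totals, and 979 to 1423 with 1 library left out (1144 without ROCK2 KD replicate 2, 1061 without Scr replicate 1, 979 without Scr replicate 3). Of the 42, 9 were lower, 5 with no filter, 21 with no scaling, and 5 to 10 with 1 library left out (5 without ROCK2 KD replicate 2 or Scr replicate 1, 6 without Scr replicate 2 or 3). Between replicates 3 and 2, 567 genes differed, 238 with no filter, and 252 to 909 with libraries left out (903, 908 and 909 without both, the ROCK2 KD or the Scr library of replicate 1, and 271 and 252 without ROCK2 KD replicate 2 or 3). Of the 42, 3 differed, 0 with no filter and 1 to 7 with libraries left out. The causes were not tested, except that no filter adjusts over 18785 genes. The alternatives gave 394 values for ROCK2 and the 8 genes with the lowest p for ROCK2 KD against Scr and for the 8 with the lowest p between replicate numbers, and all kept their direction and their side of the threshold, which for ROCK2 KD against Scr none of those genes passed. Sizes moved more: with no scaling, the log2 differences of replicates 2 and 3 from replicate 1 shrank to -0.93 and -0.36 in BNIP3L, -1.10 and -0.80 in P4HA1 and -0.91 and -1.14 in KDM3A, those of replicate 3 to -1.46 in BNIP3 and -1.17 in SLC16A3, and those of TALDO1 grew to 1.92 and 2.005. With a pseudocount of 0.1, ROCK2 KD minus Scr was -0.80 in PFKFB4 and -1.04 in P4HA2. Leaving out a replicate number moved PFKFB4 to between -0.87 and -0.11, P4HA2 to between -0.70 and -0.04, SLC16A3 to between -0.47 and -0.06, BNIP3 to between -0.57 and -0.26, KDM3A to between -0.53 and -0.16 and VHL to between -0.32 and -0.07 on the log2 scale. The reads behind low FPKM are unknown, so no counting error could be given for them.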
